A study of Mus musculus with 12 samples.

Results

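Genes for transforming growth factor β (TGF-β) ligands, receptors and feedback were followed in MC38 tumors treated with SFIH, with an anti-PD-1 antibody or with both. The members were given as a list of gene symbols, and all 9 (Tgfb1, Tgfb2, Tgfb3, Tgfbr1, Tgfbr2, Tgfbr3, Tgfbi, Smad7 and Skil) were found among the 23282 lines of the count table. The MC38 line was derived from a mouse colon carcinoma, and SFIH is a fraction of Inula helenium root rich in sesquiterpene lactones. The tumors came from wild type C57BL/6 females, given as 6 weeks old in the labels, with MC38 cells placed under the skin of the right flank, and 3 tumors per group were profiled at day 19. Con mice had received IgG2a and the vehicle, saline with DMSO and Tween. SFIH mice had received IgG2a and 50 mg/kg SFIH into the peritoneum each day. PD mice had received 200 μg of anti-PD-1 antibody 2 times a week, and Comb mice both agents. The labels do not say whether the tumors of a group came from separate mice. The paper describes injection into the right flank, which points to a single tumor per mouse. The tests set differences between groups against the spread between these tumors.

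TGF-β is secreted in a latent form and, once released, binds the type II receptor (Tgfbr2), which recruits and phosphorylates the type I receptor (Tgfbr1). The activated type I receptor phosphorylates Smad2 and Smad3, which enter the nucleus with Smad4, and Smad7 and Skil are induced as feedback inhibitors of this chain. In tumors the ligands are made by cancer cells, fibroblasts and macrophages, and they restrain T cells and drive matrix production.

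Promoter stretches are shown for Tgfb2, the one tested ligand gene that was lower in every Comb tumor than in every Con tumor, and for Tgfbr2 and Tgfbi, which varied together over the tumors. RefSeq windows on GRCm38.p6 were matched for 5 of the 9 genes (Tgfb1, Tgfb2, Tgfbr1, Tgfbr2 and Tgfbi), and the 250 bases before the annotated start are printed 5′ to 3′ on the gene's strand with motif matches in capitals.
Tgfb2 (chr1:186705990-186706239, minus strand): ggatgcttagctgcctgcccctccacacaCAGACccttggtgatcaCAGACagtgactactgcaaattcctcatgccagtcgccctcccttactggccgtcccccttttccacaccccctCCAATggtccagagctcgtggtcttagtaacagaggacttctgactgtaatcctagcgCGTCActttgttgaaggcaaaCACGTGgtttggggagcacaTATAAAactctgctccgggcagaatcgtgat
Tgfbr2 (chr9:116175364-116175613, minus strand): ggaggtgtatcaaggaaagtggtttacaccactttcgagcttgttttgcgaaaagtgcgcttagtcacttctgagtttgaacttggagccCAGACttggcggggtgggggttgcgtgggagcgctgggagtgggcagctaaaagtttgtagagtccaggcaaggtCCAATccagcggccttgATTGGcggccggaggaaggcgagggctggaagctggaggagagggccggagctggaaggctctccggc
Tgfbi (chr13:56609336-56609585, plus strand): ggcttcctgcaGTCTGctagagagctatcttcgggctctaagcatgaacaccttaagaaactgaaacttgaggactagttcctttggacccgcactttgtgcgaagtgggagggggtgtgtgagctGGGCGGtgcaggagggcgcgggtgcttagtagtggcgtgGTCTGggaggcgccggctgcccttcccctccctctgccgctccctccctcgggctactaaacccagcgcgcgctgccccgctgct
The capitals mark 6 motifs, each searched on both strands. The TATA box was spelled TATAAA and was held by 12.4% of the 32817 windows of this length, and the E-box was spelled CACGTG and held by 6.02%. The core of the cAMP response element was spelled TGACG (17.7% of windows) and the Smad binding element was spelled CAGAC (42.2% of windows). A GC box was any GGGCGG (32.7% of windows), and a CCAAT box was any match to its own name (33.8%). The Tgfb2 window held a TATA box 31 bases before the start, an E-box at 51, the cAMP motif on the reverse strand at 72, a CCAAT box at 130 and Smad elements at 204 and 221. In the Tgfbr2 window there was a Smad element at 160 and a CCAAT box at 85 and, on the reverse strand, at 68. The Tgfbi window held Smad elements on the reverse strand at 85 and 239 and a GC box at 124. These matches describe sequence only.

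Counts per tumor summed to between 7870741 and 12261032, and levels below are normalised read counts, scaled to that sum (CPM). The libraries were read from the 3′ ends of transcripts, so that CPM was not divided by length, and levels are compared between tumors for 1 gene and not between genes, apart from the ligand shares. Comb replicate 3 stood apart from the other tumors, with a TMM scaling factor of 0.758 and 5439 CPM in 8 skeletal muscle markers, so the differences of the members in Comb are also given without it. The labels call the samples tumor cells, while RNA was taken from whole tumor tissue. Of 8 epithelial markers 2 to 7 had over 3 counts in a tumor, their sum was 4.60 to 88.0 CPM, and Epcam had 0 to 3 counts in Con. Since the tissue is a mixture, fewer cells of a type and less RNA per cell cannot be told apart in any value below.

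No member passed an adjusted p of 0.05 with the edgeR quasi-likelihood test in any of the 5 comparisons of groups or in the interaction of the agents. Of the 9 genes, 8 had enough reads to be tested, Tgfb1 being left out. The background was the same, as 0% of the 13464 genes tested passed in each of these comparisons. At an unadjusted p under 0.05, 4 members (Tgfbr1, Tgfbr2, Tgfbi higher and Smad7 lower) were past the threshold in Comb against Con, where 25.3% of all genes were. In Comb against PD there were 4 (Tgfbr2 and Tgfbr3 higher, Tgfb2 and Smad7 lower; 18.0% of all genes) and in Comb against SFIH 3 (Tgfb3, Tgfbr2 and Tgfbi, all higher; 19.0%). PD against Con gave 1 member, Tgfbr3 (3.99%), SFIH against Con gave 0 (2.25%), and the interaction gave 1, again Tgfbr3 (2.55%). Without Comb replicate 3, Comb against Con kept 3 (Tgfbr2 and Tgfbi higher, Smad7 lower; 18.9% of all genes). Comb against PD then kept 2 (Tgfb2 and Smad7 lower; 9.05%), Comb against SFIH 1 (Tgfbi; 10.8%) and the interaction 0 (1.5%). Comparisons with Con share its tumors, as do those with Comb, so their counts are not independent.

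The calls depended on the tool and on single Comb tumors. DESeq2 called 14.8% of all genes in Comb against Con, among them Tgfbr2 (adjusted p = 0.00682) and Tgfbi (0.0169), and 8.59% in Comb against SFIH, among them Tgfbi (0.0497). It called 3.08% of genes in Comb against PD, with 0 members. With edgeR and without Comb replicate 1, 28.1% of genes passed in Comb against Con, including Tgfbr1, Tgfbr2 and Tgfbi with adjusted p of 0.0175, 0.00437 and 0.0105. Without that tumor 1 member passed against PD (Tgfbr2; 15.3% of genes), 4 against SFIH (Tgfb3, Tgfbr1, Tgfbr2 and Tgfbi; 22.4%) and the same 4 with anti-PD-1 of either arm against none (17.2%). Without Comb replicate 3, 0 members were called in Comb against Con, PD or SFIH by either tool, where edgeR called 0.0371%, 0% and 0% of all genes and DESeq2 5.47%, 0.163% and 0.698%.

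The plot of CPM by tumor shows all 9 genes.

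**Figure D1:**
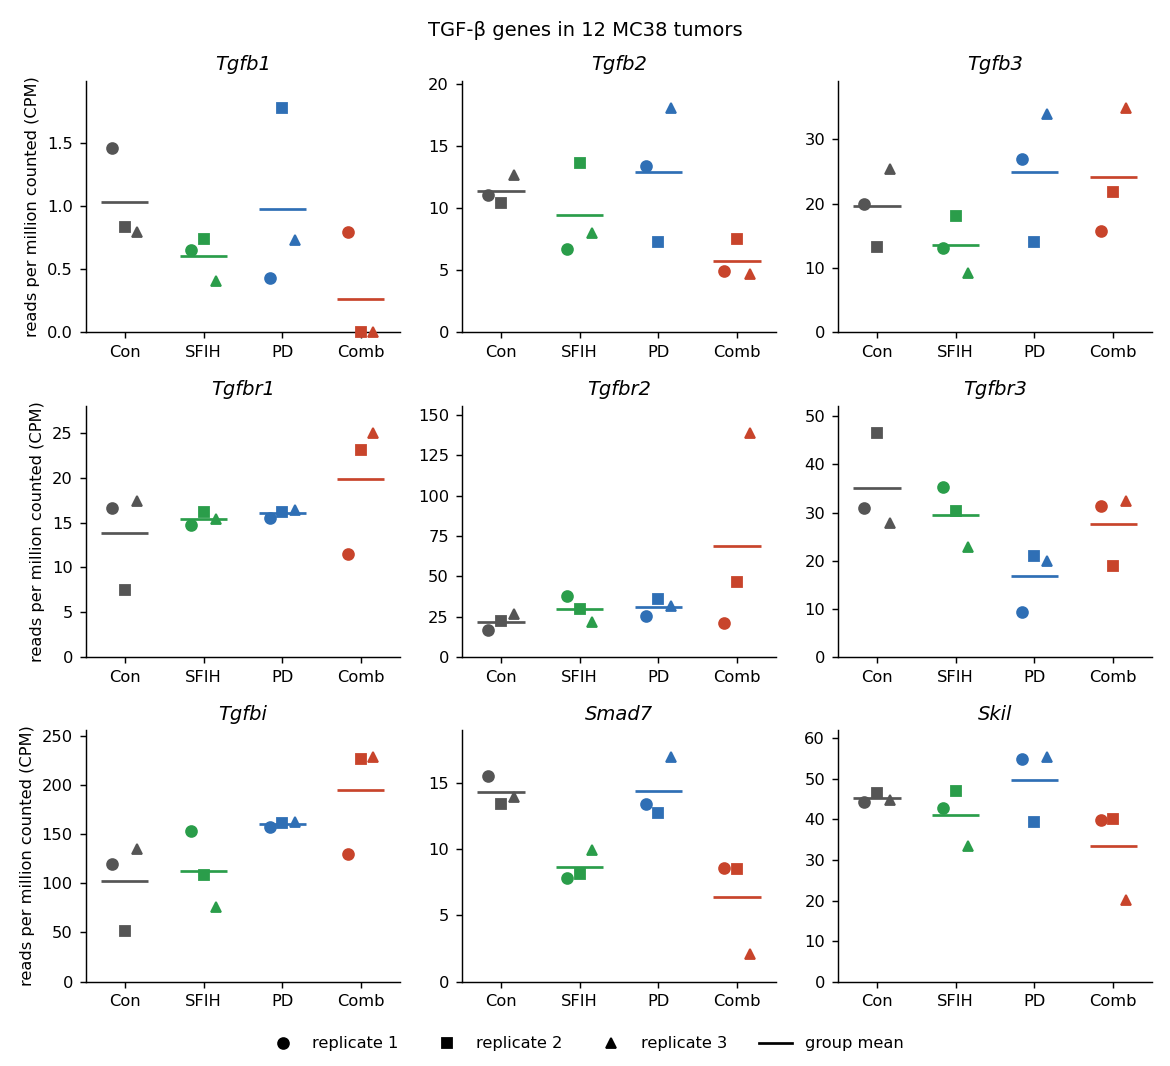
Level of each of the 9 genes in CPM (linear axis from 0) in each tumor, by group, with the marker shape giving the replicate and the horizontal line the mean of 3 tumors. Smad7 in all SFIH and Comb tumors lies below all Con and PD tumors, and Tgfbr2 in Comb spreads from 21.3 to 139 CPM.

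On CPM, the ligand genes Tgfb1 and Tgfb2 were lower in every Comb tumor than in every Con tumor, but Tgfb1, at 16 counts or fewer, overlapped after TMM scaling. Tgfb2, known for roles in matrix and heart development, had CPM of 11.04, 10.4 and 12.7 for the Con tumors, 6.69, 13.7 and 7.98 for SFIH, 13.4, 7.24 and 18.1 for PD and 4.95, 7.52 and 4.74 for Comb. Every Comb value lay below the Con values, 2 of 3 lay below all PD values, and the SFIH and PD groups each spread across the Con range. The group means were 11.4 ± 1.17 in Con and 5.74 ± 1.55 in Comb (SD, n = 3 each). Its log2 fold change in Comb was −0.71 against Con (SE 0.36, edgeR adjusted p = 0.246), −0.97 against PD (0.37, 0.245) and −0.43 against SFIH (0.36, 0.511). Across all genes, 22.2% were lower in Comb than in Con without overlap on CPM, and 13.0% after TMM scaling, under which Tgfb2 still did not overlap. Leaving out Comb replicate 3 gave −0.68 against Con, −0.95 against PD and −0.40 against SFIH.

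Tgfb3, a ligand prominent in palate formation and wound repair, had CPM of 19.98, 13.3 and 25.4 for the Con tumors, 13.1, 18.1 and 9.21 for SFIH, 27.0, 14.0 and 34.0 for PD and 15.7, 21.7 and 34.9 for Comb. The Comb and PD groups each overlapped with Con, with Comb replicate 3 and PD replicate 3 at the top, and the lowest value was in SFIH replicate 3. Its log2 fold change was 0.65 in Comb against Con (SE 0.42, edgeR adjusted p = 0.337) and 1.20 against SFIH (SE 0.42, 0.173). Without Comb replicate 3 these were 0.13 and 0.68, and the difference from PD turned from 0.21 to −0.31.

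Tgfb1, usually the main ligand of immune cells, was near the limit of detection. It had 4 to 16 counts in each Con, SFIH and PD tumor, 8 in Comb replicate 1 and 0 in the other two Comb tumors. As CPM this was 1.46, 0.832 and 0.798 for the Con tumors, 0.652, 0.742 and 0.409 for SFIH, 0.430, 1.78 and 0.732 for PD and 0.792, 0 and 0 for Comb. A count of 0 allows a level of up to 0.305 CPM in Comb replicate 2 and 0.273 in Comb replicate 3, from counting error alone. When edgeR was run without a filter on low counts, the log2 fold change in Comb against Con was −1.82 (SE 1.16, adjusted p = 0.382), so a difference was not detectable at this depth. How the 3′ end of Tgfb1 was annotated for the counting is not given in the sources used here, and low counts may not stand for a low level of the transcript.

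The makeup of the ligand reads was compared as shares within a tumor, which do not depend on depth or scaling but do take in how well the 3′ end of each gene is counted. Tgfb2 made up 34.0%, 42.4% and 32.6% of the reads of the 3 ligand genes in Con and 32.7%, 42.0% and 45.3% in SFIH. For PD the shares were 32.9%, 31.5% and 34.3%, and in Comb 23.0%, 25.7% and 12.0%. Every Comb tumor was below every tumor of the other 3 groups. Among Tgfb1 and Tgfb2 reads alone the direction reversed, with the mean Tgfb2 share in Comb 3.74 points above Con, 4.30 above PD and 1.71 above SFIH. The exact permutation p for these differences was 0.6, 0.5 and 0.8, and Tgfb1 had 8, 0 and 0 counts in the Comb tumors. The 95% Wilson intervals in Comb were 17.9% to 29.1%, 21.0% to 31.0% and 9.23% to 15.3%, over 217, 288 and 435 ligand reads, and these intervals cover counting error only. The mean share was 20.2% ± 7.29 for Comb, beside 36.3% ± 5.30 for Con, 40.0% ± 6.57 for SFIH and 32.9% ± 1.38 for PD (SD, n = 3 each). The difference of Comb from Con was −16.1 percentage points, from PD −12.7 and from SFIH −19.8, each with an exact permutation test p = 0.1, two-sided, which is the smallest that 3 against 3 can give. Without Comb replicate 3 the differences were −11.9, −8.51 and −15.6 points. Tgfb3 took most of the rest, with 73.3%, 74.3% and 88.0% in Comb against 54.2% to 65.4% in Con.

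**Figure D2:**
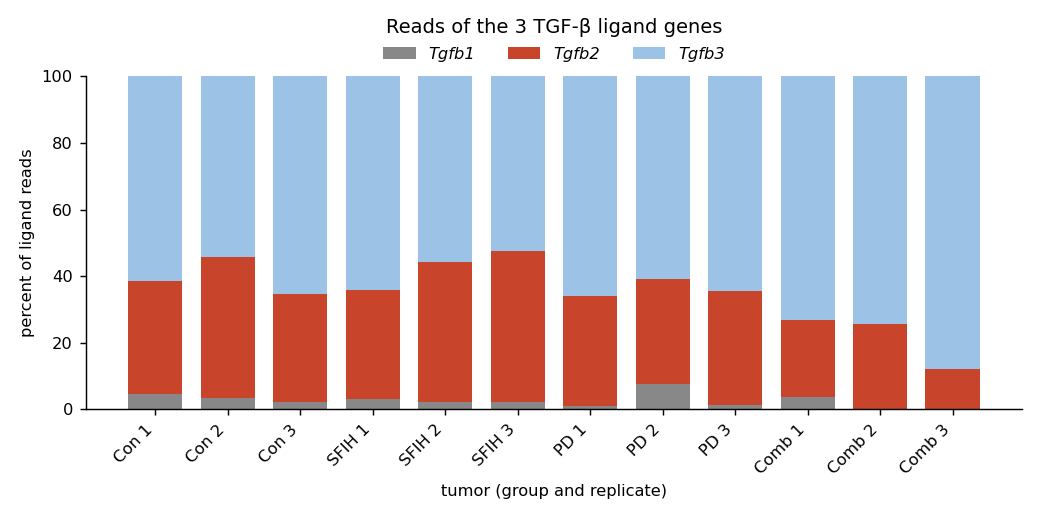
Percent of the reads of Tgfb1, Tgfb2 and Tgfb3 together that came from each gene, with 1 bar per tumor named by group and replicate. The Tgfb2 section is smallest in the 3 Comb tumors, at 23.0%, 25.7% and 12.0%.

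Of the 3 receptor genes, Tgfbr2 had the largest log2 fold change in Comb against Con, carried mostly by 1 tumor. The type II receptor kinase gene Tgfbr2 had CPM of 16.9, 22.0 and 26.3 for the Con tumors, 37.9, 29.6 and 21.9 for SFIH, 25.2, 35.7 and 31.4 for PD and 21.3, 46.4 and 139 for Comb. Comb replicate 3 was far above all other tumors, Comb replicate 2 was above them next, and Comb replicate 1 lay inside the Con range. Comb exceeded Con by a log2 fold change of 2.07 (SE 0.60, 95% interval 0.76 to 3.39, edgeR adjusted p = 0.0752), PD by 1.46 (adjusted p = 0.254) and SFIH by 1.63 (0.179). Leaving out Comb replicate 3 gave 0.85, 0.24 and 0.41, and the interaction turned from 1.02 to −0.20. Against Con, SFIH stood at 0.44 and PD at 0.61, with 2 of 3 tumors above all Con tumors in each on CPM, and all 3 PD tumors after TMM scaling (as for 9.42% of all genes).

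Tgfbr1, the type I receptor kinase that phosphorylates Smad2 and Smad3, had CPM of 16.6, 7.49 and 17.4 for the Con tumors, 14.8, 16.2 and 15.3 for SFIH, 15.5, 16.1 and 16.4 for PD and 11.5, 23.1 and 25.0 for Comb. Con replicate 2 lay lowest, the SFIH and PD tumors were tightly grouped, and Comb replicates 2 and 3 lay above all others. The Comb difference from Con was 0.86 (SE 0.38, edgeR adjusted p = 0.188), and 0.53 without Comb replicate 3. SFIH and PD differed from Con by 0.16 and 0.32, within the Con spread.

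Tgfbr3 (betaglycan), a co-receptor that presents Tgfb2 to the type II receptor, had its lowest group mean under anti-PD-1 alone. Its CPM were 31.0, 46.6 and 27.8 for the Con tumors, 35.2, 30.3 and 22.8 for SFIH, 9.25, 21.0 and 19.98 for PD and 31.4, 18.8 and 32.4 for Comb. The 3 PD tumors were below all Con tumors, while Comb overlapped with both Con and PD. PD differed from Con by −0.97 on the log2 scale (SE 0.36, 95% interval −1.77 to −0.18), with an edgeR adjusted p of 0.9998, and 14.8% of all genes were lower in PD without overlap. Comb differed from Con by −0.07 and from PD by 0.90 (SE 0.36, adjusted p = 0.254). The interaction of the agents was 1.19 (SE 0.51, adjusted p = 0.894). Without Comb replicate 3 these were −0.35, 0.63 and 0.91.

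Tgfbi, a secreted matrix protein named for its induction by TGF-β, had its highest values in tumors that had received the antibody. Its CPM were 119.8, 51.8 and 135 for the Con tumors, 154, 109 and 76.3 for SFIH, 157, 161 and 163 for PD and 130.2, 227 and 228 for Comb. The PD tumors agreed closely and lay above all Con tumors, 5.76% of all genes being higher in PD in this way. Comb replicates 2 and 3 were the highest of the series and Comb replicate 1 lay inside the Con range on CPM. After TMM scaling all 3 Comb tumors lay above all Con tumors, as for 11.7% of all genes. The log2 fold change was 1.26 in Comb against Con (SE 0.38, 95% interval 0.43 to 2.09, edgeR adjusted p = 0.0812), 1.13 against SFIH (adjusted p = 0.155) and 0.50 against PD (0.457). Without Comb replicate 3 these were 1.01, 0.88 and 0.25. PD against Con gave 0.76 (SE 0.38), and SFIH against Con 0.13, whose sign turned without Con replicate 2 or SFIH replicate 1.

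After these values had been seen, the 6 tumors with the antibody (PD and Comb) were set against the 6 without (Con and SFIH), as the mean of both arms. Tgfbi was 1.92-fold higher with the antibody (log2 fold change 0.94, SE 0.27, edgeR adjusted p = 0.101), with 5 of 6 tumors above all 6 others and an exact permutation p of 0.00866 on log2(CPM + 1). That p was obtained for a contrast picked after Tgfbi had been seen, and its splits did not keep the SFIH arms apart. At an unadjusted p under 0.05 there were 3 members (Tgfb3, Tgfbr2 and Tgfbi, all higher) beside 18.7% of all genes. Without Comb replicate 3 there were 4 (the same 3 higher and Tgfbr3 lower) beside 19.5%. DESeq2 called 9.28% of genes and Tgfbi alone of the members (adjusted p = 0.0157), and without Comb replicate 3 it called 7.32% and again Tgfbi alone (0.0207). In edgeR without that tumor the log2 fold change was 0.82 (adjusted p = 0.111).

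Smad7, the inhibitory Smad that competes with Smad2 and Smad3 at the type I receptor and recruits ubiquitin ligases to it, was low in every tumor that had received SFIH. Its CPM were 15.5, 13.4 and 14.0 for the Con tumors, 7.83, 8.17 and 9.92 for SFIH, 13.4, 12.7 and 16.9 for PD and 8.62, 8.54 and 2.09 for Comb. The SFIH tumors lay below all Con tumors, and the Comb tumors below all Con and all PD tumors, while PD overlapped with Con. Beside these, 8.85% of all genes were lower in SFIH than in Con without overlap, 22.2% lower in Comb than in Con and 8.42% lower in Comb than in PD. The log2 fold changes were −0.72 in SFIH against Con (SE 0.38, edgeR adjusted p = 0.9998), −0.95 in Comb against Con (0.38, 0.156) and −1.04 in Comb against PD (0.38, 0.243). Comb replicate 3 had the lowest value, and without it Comb gave −0.57 against Con and −0.67 against PD, and its difference from SFIH turned from −0.22 to 0.16.

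The 6 tumors with SFIH were then set against the 6 without, again after the values had been seen. Smad7 was 0.542 times the level without SFIH (log2 fold change −0.88, SE 0.27, 95% interval −1.48 to −0.29, edgeR adjusted p = 0.313). All 6 tumors with SFIH were below all 6 without, as was so for 1.56% of all genes, and the exact permutation p of 0.00216, two-sided, is the smallest that 6 against 6 can give and was obtained for a contrast picked for its separation. At an unadjusted p under 0.05 there were 3 members (Tgfb2 and Smad7 lower, Tgfbr2 higher) beside 14.5% of all genes. Without Comb replicate 3 there were 2 (Tgfb2 and Smad7, both lower) beside 15.6%. DESeq2 called 1.99% of genes and 0 members with all tumors (Smad7 adjusted p = 0.0525) and Smad7 alone without Comb replicate 3 (0.00718, beside 3.35% of genes). In edgeR without that tumor the change was −0.70 (adjusted p = 0.101).

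Skil (SnoN), a nuclear co-repressor that binds Smad2, Smad3 and Smad4, had the smallest standard errors of the 8 genes tested. Its CPM were 44.4, 46.6 and 44.8 for the Con tumors, 42.9, 46.9 and 33.4 for SFIH, 54.8, 39.3 and 55.3 for PD and 39.8, 40.2 and 20.2 for Comb. The Con tumors were within 44.4 to 46.6 CPM, all Comb tumors lay below them (as for 22.2% of all genes), and Comb replicate 3 was the lowest, but after TMM scaling the groups overlapped. Its log2 fold change was −0.20 in Comb against Con (SE 0.21, edgeR adjusted p = 0.546) and −0.43 against PD (SE 0.21, 0.299), and without Comb replicate 3 these were −0.0096 and −0.24. The 6 tumors with SFIH overlapped the 6 without for Skil.

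**Figure D3:**
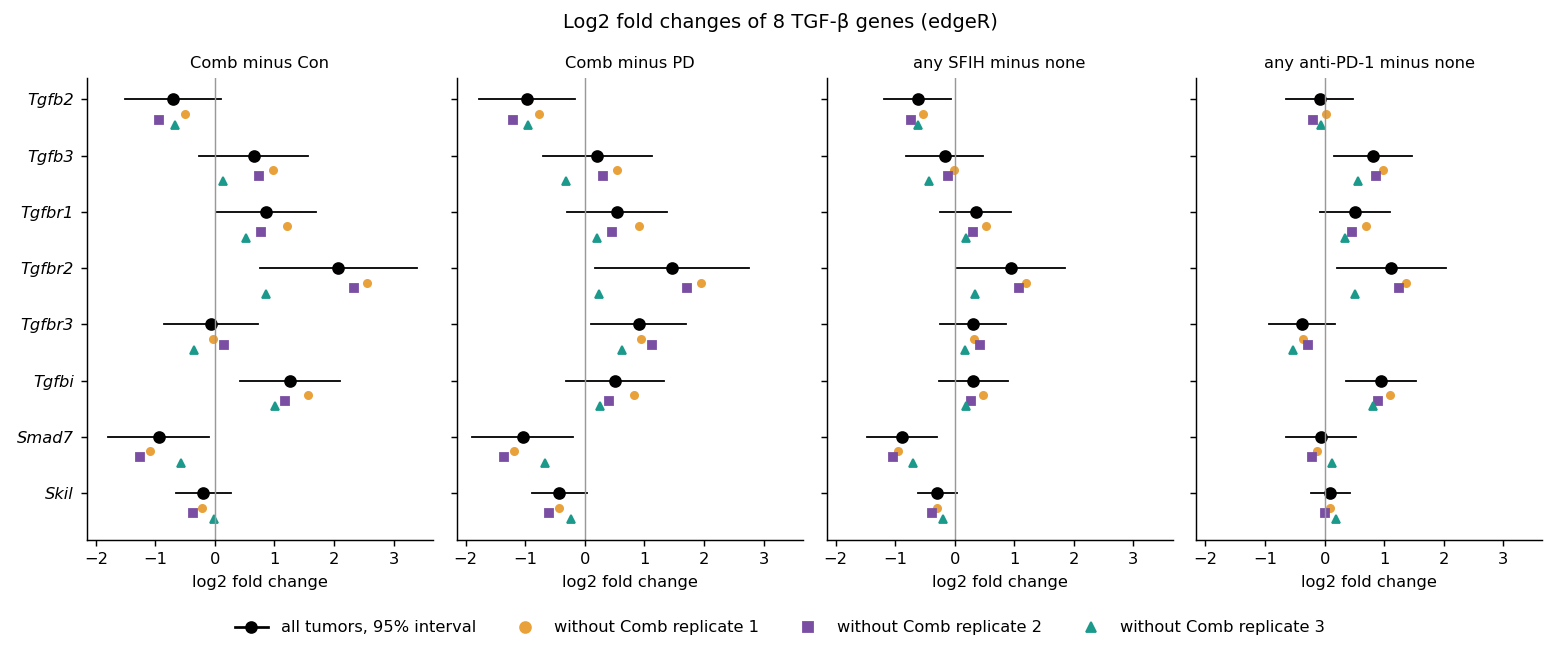
Log2 fold changes from edgeR for the 8 genes tested (black point with 95% interval, all 12 tumors) in Comb against Con, Comb against PD, any SFIH against none and any anti-PD-1 against none, with the value when each Comb tumor was left out in colour. Tgfbr2 in Comb against Con moves from 2.07 to 0.85 without Comb replicate 3 and to 2.56 without Comb replicate 1, and Smad7 in any SFIH against none stays between −1.04 and −0.70.

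Marker genes of other cell types moved with several members. The 7 macrophage markers (Adgre1, Cd68, Csf1r, C1qa, C1qb, Mrc1 and Fcgr1) summed to 461 to 873 CPM for Con, 821 to 972 for SFIH, 831 to 1551 for PD and 946 to 9531 for Comb, with all 7 over 3 counts in every tumor. The 7 fibroblast markers summed to 2227 to 2921 CPM for Con, 1150.1 to 3478 for SFIH, 4125 to 6381 for PD and 2980.3 to 17432 for Comb, and all 7 were likewise detected throughout. The 6 T cell markers found summed to 19.9 to 36.9 CPM in Con and 27.0 to 214 in Comb. In all 3 lists Comb replicate 3 was highest and Comb replicate 1 was near Con, which is the order of Tgfbr2 in Comb.

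Over the 12 tumors, Spearman's rho with the macrophage sum was 0.84 for Tgfbr2 and 0.89 for Tgfbi, and 0.79 and 0.85 over 11 tumors without Comb replicate 3. With the T cell sum it was 0.83 for Tgfbr2 and 0.96 for Tgfbi. Tgfbr3 ran the other way, at −0.75 with the pericyte and smooth muscle sum and −0.56 with the fibroblast sum (−0.72 and −0.85 without Comb replicate 3). For Smad7 it was −0.44 with macrophages and −0.13 with fibroblasts, and for Tgfb2 −0.45 and −0.20. Other lists gave these 2 genes stronger values. Tgfb2 was at −0.70 with the neutrophil sum (−0.61 without Comb replicate 3). Smad7 was at −0.63 with the epithelial, −0.61 with the adipocyte and −0.55 with the neutrophil sum (−0.52, −0.49 and −0.42). Tgfbr2 was also at 0.80 with the endothelial sum (0.75) and Tgfbi at 0.69 with the regulatory T cell sum (0.93). These are descriptions over tumors that share groups and libraries, and the part of the marker-bearing cells in each result was not tested.

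Reads of muscle, skin, fat and neutrophil markers were highest in Comb replicate 3. The 8 skeletal muscle markers summed to 5439 CPM in Comb replicate 3, 697 in Comb replicate 1, 146.7 in PD replicate 1 and 3.30 to 48.8 elsewhere, and the 5 keratinocyte markers to 306 CPM in Comb replicate 3 and 2.66 to 28.5 elsewhere. The 6 adipocyte markers summed to 953 CPM in Comb replicate 3, 389 in Comb replicate 2, 45.1 in Comb replicate 1 and 37.2 to 148 in the other groups, and the 4 neutrophil markers found to 699.9 CPM in Comb replicate 3 and 14.5 to 95.01 elsewhere. The part of these reads in the values of the members was not tested.

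**Figure D4:**
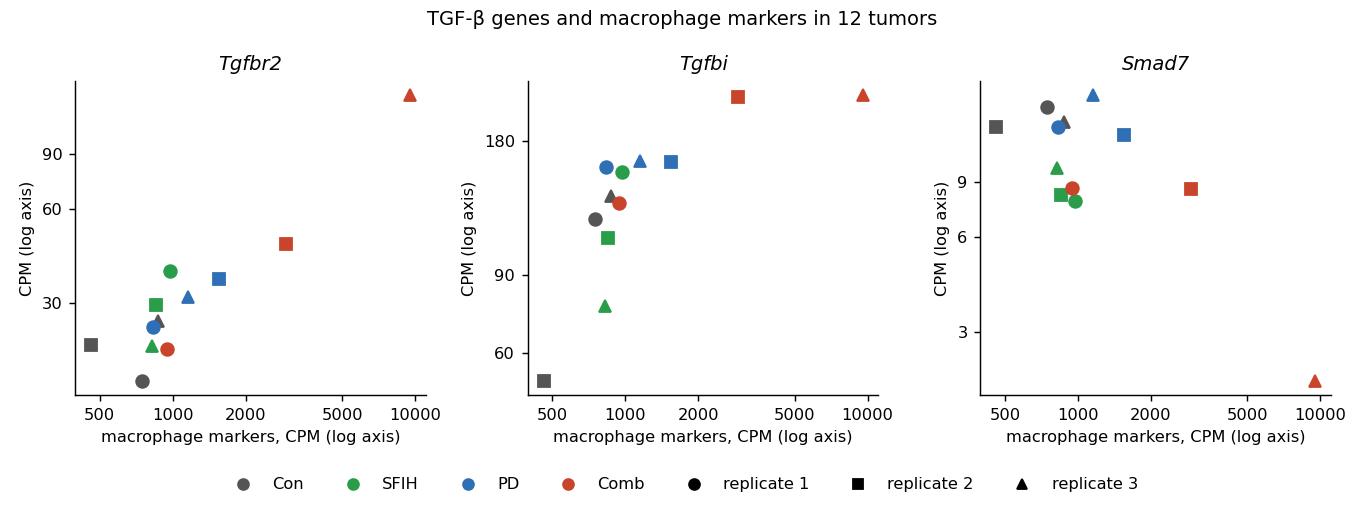
CPM of Tgfbr2, Tgfbi and Smad7 against the summed CPM of 7 macrophage markers in the 12 tumors (both axes logarithmic), with colour for the group and shape for the replicate. Tgfbr2 and Tgfbi are highest where the markers are highest (rho 0.84 and 0.89), and Smad7 is lowest there, at 2.09 CPM in Comb replicate 3.

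Some members ranked the tumors alike. Spearman's rho over 12 tumors was 0.78 between Tgfbr2 and Tgfbi, 0.65 between Tgfbr1 and Tgfbi, 0.74 between Tgfb2 and Skil and 0.66 between Smad7 and Skil. It was −0.55 between Tgfb2 and Tgfbr3 and 0.37 between Tgfb3 and Skil, the latter 0.78 without Comb replicate 3. Among 10601 genes with at least 50 counts on average, those nearest to Tgfbr2 in rank were C1qc (a complement subunit made by macrophages) and Snx17 (both 0.97), and those nearest to Tgfbr1 were Trem2 (a macrophage receptor, 0.97) and Csrp1 (0.94). Nearest to Tgfbi were Gpr65 and Parvg (both 0.99), to Smad7 Gm12504 (0.97) and Alkbh8 (0.97), and to Skil Hmgb2 (0.94) and Gtf2h2 (0.92). For Tgfb2 they were Nav1 (0.94) and Arhgef40 (0.93), for Tgfb3 Arel1 (0.96) and Yipf5 (0.94), and for Tgfbr3 Hps1 (0.94) and Cp (0.90). These were the highest of many, are given with no test, and share depth and library with the member.

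Other genes of the pathway were counted in 6 lists for Comb against Con, where the median log2 fold change of all genes was −0.03. With edgeR, 0 genes of any list passed an adjusted p of 0.05 in any comparison, so the counts below are of unadjusted p under 0.05, to be set beside 25.3% of all genes (18.9% without Comb replicate 3). Of 16 tested genes that keep TGF-β latent or release it, 6 were higher and 0 lower, with a median of 0.57, and without Comb replicate 3 these were 4, 0 and 0.26. The 3 genes with the largest changes, among those with at least 50 counts on average, are named here. The plasminogen activator Plau was at 2.01 (1.01 without Comb replicate 3). Nrros, which holds latent TGF-β on myeloid cells, was at 1.99 (1.10 without Comb replicate 3). The gelatinase Mmp2 was at 1.69 (1.08 without Comb replicate 3). The 12 co-receptors and extracellular binders gave 5 higher and 0 lower (median 0.60), and 3, 1 and 0.56 without that tumor. Here the matrix proteoglycans Bgn and Dcn, which bind TGF-β, were at 2.86 (1.98 without Comb replicate 3) and 2.19 (0.73 without Comb replicate 3), and Lrg1 was at 1.66 (1.59 without Comb replicate 3).

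In the next 3 lists the medians lay nearer to 0. Of 10 tested Smad proteins and adaptors, 0 were higher and 2 lower, with a median of −0.30 (0, 1 and −0.24 without Comb replicate 3). Smad1 stood at −0.54 (−0.32 without Comb replicate 3), Trim33, which binds phosphorylated Smads, at −0.65 (−0.33 without Comb replicate 3) and the kinase Map3k7 (TAK1) at −0.43 (−0.23 without Comb replicate 3). Among 15 other negative regulators 1 was higher and 3 lower (median 0.03), or 0, 3 and −0.18 without that tumor, with the ubiquitin ligases Nedd4l at −1.01 (−0.96 without Comb replicate 3) and Smurf1 at −1.003 (−0.56 without Comb replicate 3) and the co-repressor Tgif2 at −0.88 (−0.38 without Comb replicate 3). The 14 tested genes of the activin and BMP family gave 1 higher and 1 lower (median −0.16), or 0, 1 and −0.14 without it, with Bmp1 at 0.42 (0.10 without Comb replicate 3), Bmp2 at −0.44 (−0.50 without Comb replicate 3) and the receptor Bmpr1a at −0.40 (−0.25 without Comb replicate 3).

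Of 29 TGF-β induced targets 10 were higher and 1 lower, with a median of 0.13 (7, 2 and 0.19 without Comb replicate 3). The 3 named by the same rule were Postn (periostin) at 4.16 (2.52 without Comb replicate 3), Lox (lysyl oxidase) at 3.16 (1.80 without Comb replicate 3) and Col1a1 (a type I collagen chain) at 2.58 (1.67 without Comb replicate 3). Fibroblasts also make these 3 products. Col1a1, Col1a2 and Col3a1 of the targets and Dcn of the binders are also in the fibroblast marker list, whose sum moved in the same tumors. Acta2 of the targets is in the pericyte and smooth muscle list. DESeq2 called 5 genes of the latency list, 4 binders and 7 targets as higher at an adjusted p under 0.05, beside 12.0% of all genes, and 0 genes of these lists as lower. It called 1 other negative regulator and 1 gene of the activin and BMP family as lower (2.89% of all genes), and 0 Smad proteins and adaptors. Without Comb replicate 3 it called 1 of the latency list, 1 binder and 3 targets as higher (4.05% of all genes) and 1 binder and 1 target as lower (1.42%), and 0 genes of the other 3 lists. The same lists in SFIH against Con had 0, 0 and 1 genes higher at an unadjusted p (1.2% of all genes higher), and in PD against Con 2, 0 and 4 (2.31%).

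**Figure D5:**
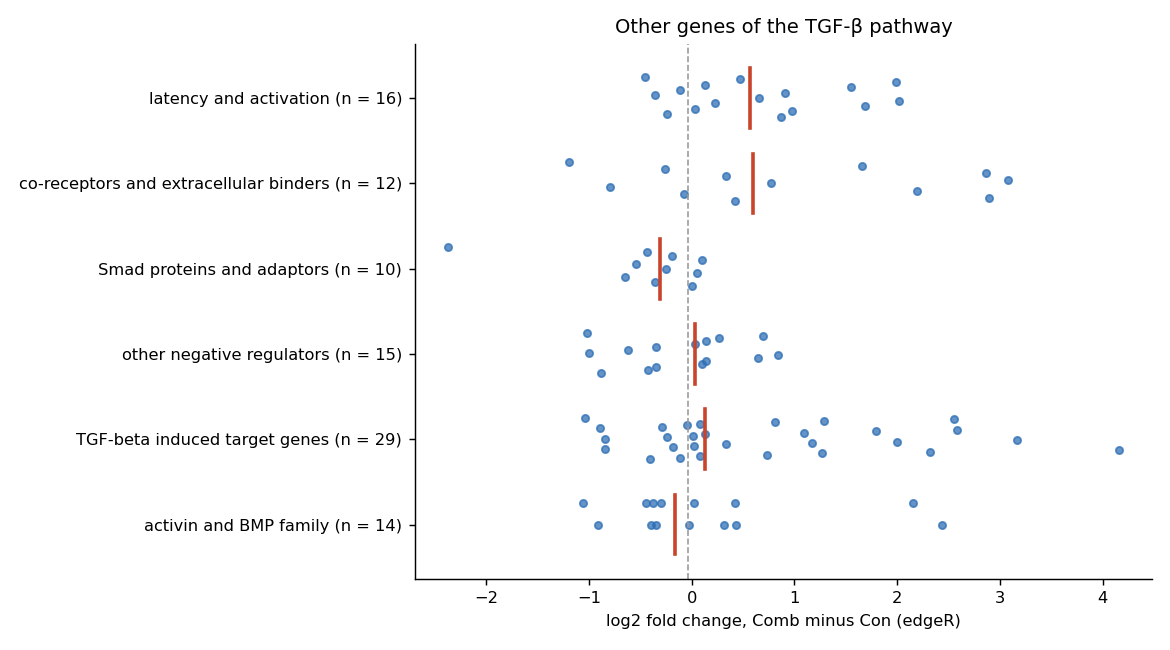
Log2 fold change in Comb against Con (edgeR) of each tested gene in 6 lists of the TGF-β pathway, with 1 point per gene, the red bar at the median of the list and the dashed line at the median of all genes (−0.03). Vertical spread within a list only separates the points, and the targets reach from below −1 to 4.16.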

How the data were processed

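Total RNA of 12 tumors was made into QuantSeq 3′ mRNA-Seq libraries. The authors deposited raw read counts per gene symbol, without normalization, and the aligner, counting tool, genome build and annotation are not given in the sources used here. Column names gave group and replicate. The table held 23282 lines, 19137 with a count. The ribosomal line Rn45s held 4.28% to 17.1% of a tumor's reads and was kept in the sums. No replicate columns were copies of each other.

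From these counts, edgeR 4.0.16 in R 4.3.3 (filterByExpr with the groups, 13464 genes, TMM, 1 quasi-likelihood fit of 12 tumors without a block) gave two-sided tests, and their p-values were adjusted across the tested genes after Benjamini and Hochberg (threshold 0.05). Levels were log2(CPM + 1) or CPM, with exact permutation tests over all splits of the tumors compared, without regard to the other agent. At these totals a count of 3 was taken as the floor of detection. DESeq2 1.42.0, other scalings, no filter, the compared groups alone, a replicate block and each tumor left out in turn were alternatives. Tested on simulated data for Comb against Con (13464 genes, 200 changed 4-fold), 68.5% of the changed genes were recovered by edgeR (4 false calls) and 77% by DESeq2 (22 false calls). In that simulation every gene had the same dispersion, the changed genes had at least 50 counts on average and no tumor stood apart. Its rates therefore do not carry over to the Comb tumors here. Python 3.11.15 with pandas 2.3.3, scipy 1.17.1 and matplotlib 3.10.9 made tables and figures.

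The members, the pathway lists and the marker lists were chosen with earlier results of these data known. All 9 members were named. From each pathway list the text names genes with an adjusted p under 0.05 in any comparison or, where fewer than 3 had one, the 3 with the largest absolute log2 fold change in Comb against Con among those with at least 50 counts on average. For likeness, the 2 genes with the highest Spearman rho were named. The contrasts of any SFIH and any anti-PD-1 against none, and the DESeq2 fits without Comb replicate 3, were added after the data had been seen.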

Additional observations from a re-analysis of the deposited data

How the results depend on the processing

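With DESeq2 in place of edgeR, 2 members were called in Comb against Con, 1 in Comb against SFIH and 1 in any anti-PD-1 against none. DESeq2 without Comb replicate 3, added after the data had been seen, called 1 in any SFIH and 1 in any anti-PD-1 against none. Leaving out each tumor in turn, edgeR called 0 to 3 members in Comb against Con, 0 to 1 against PD, 0 to 4 against SFIH and 0 to 4 in any anti-PD-1 against none, the highest counts being without Comb replicate 1 (28.1%, 15.3%, 22.4% and 17.2% of all genes). The Tgfb2 share was −18.8 to −11.9 percentage points from Con, −15.4 to −8.51 from PD and −23.5 to −15.6 from SFIH. Among Tgfb1 and Tgfb2 reads alone, by construction without Tgfb3, it reversed to 3.74, 4.30 and 1.71 points (exact permutation p of 0.6, 0.5 and 0.8).

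Some log2 fold changes changed sign, none of them called. In DESeq2 without Comb replicate 3, Skil was at 0.0095 in Comb against Con, Tgfb3 at −0.29 against PD, and Tgfbr3 at −0.052, Smad7 at 0.18 and Skil at 0.16 against SFIH. There the interaction was −0.18 for Tgfbr2 and 0.078 for Smad7, and Smad7 was at 0.14 in any anti-PD-1 against none. Without TMM, which moved the median of all genes in Comb against Con from −0.03 to −0.29, Tgfb3 was at −0.052 against PD, Tgfbr3 at −0.097 against SFIH and Skil at −0.080 in any anti-PD-1 against none. TMM scaling turned the differences of log2(CPM + 1) levels from −0.0015 to 0.090 for Smad7 in PD against Con, from −0.034 to 0.14 for Tgfb3 in Comb against PD and from −0.11 to 0.16 for Tgfbr3 against SFIH. The cause of these changes was not tested. With 1 tumor left out, the ranges that crossed 0 were −0.13 to 0.34 for Tgfbr1 and −0.19 to 0.33 for Tgfbi in SFIH against Con, −0.011 to 0.52 for Tgfb2 in PD against Con, −0.35 to 0.22 for Tgfbr3 in Comb against Con and −0.31 to 0.54 for Tgfb3 in Comb against PD. Against SFIH they were −0.068 to 0.43 for Tgfbr3, −0.53 to 0.16 for Smad7 and −0.21 to 0.15 for Skil, in the interaction −0.20 to 1.52 for Tgfbr2 and −0.63 to 0.058 for Smad7, and in any anti-PD-1 against none −0.22 to 0.087 for Tgfb2 and −0.21 to 0.13 for Smad7.

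With the replicate number as a block, 0 members were called in each comparison, as without it. Same-numbered tumors did not deviate together (correlations −0.29 to 0.41 over 18 pairs, 6 of them over 0.1), so the numbers were not taken as pairs. There were 3 tumors a group, Comb replicate 3 stood apart from the rest and Tgfb1 had 16 counts or fewer. How small a difference could be resolved was not tested.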
